A study of Homo sapiens with 6 samples.

Results

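Integrins and laminins were examined in HEY cells (an ovarian cancer line, established and of human origin) with and without an siRNA against CCNL2, the gene of cyclin L2. The chains were taken from the deposited table by gene name, which gave 38 of 60835 distinct names. Of these, 26 encode integrin chains (18 alpha and 8 beta) and 12 encode laminin chains (5 alpha, 4 beta and 3 gamma). Total RNA was sequenced from 3 libraries with a control siRNA (siNC) and 3 with the CCNL2 siRNA (siCCNL2), and no other agent or genotype separates the groups in the labels. Transfection lasted 48 h according to a protocol text that mentions the CCNL2 siRNA even for control libraries, and controls were taken to have had the same time. Separate cultures are not stated in the labels. The p-values therefore reflect the spread among these 6 libraries, which may be technical. The title places the experiment in work on 5-methylcytosine, cisplatin resistance and ferroptosis.

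Integrins are receptors for the extracellular matrix that work as pairs of 1 alpha and 1 beta chain. The ITGB1 chain pairs with most alpha chains, including the laminin receptors with ITGA3, ITGA6 or ITGA7, the collagen receptors with ITGA1, ITGA2, ITGA10 or ITGA11, and the fibronectin receptor with ITGA5. The ITGAV chain pairs with ITGB1, ITGB3, ITGB5, ITGB6 or ITGB8 and binds ligands with an arginine-glycine-aspartate motif, while ITGB2 and its alpha partners belong to leukocytes. Laminins are secreted trimers of 1 alpha, 1 beta and 1 gamma chain and form the sheet of the basement membrane to which epithelial cells attach. LAMA3 and LAMB3 are chains of the laminin that anchors epithelia to the tissue beneath them, and the trimer of LAMA5, LAMB1 and LAMC1 is the most widespread in adult basement membranes.

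Total counts ran from 13596286 to 18095529 per library. Over log2(CPM + 1) of genes, r was 0.9952 to 0.996 within a group and 0.9888 to 0.9904 between groups. The targeted gene CCNL2 stood at 261, 267 and 246 CPM in siNC and at 203, 182 and 186 CPM in siCCNL2, a fall of 26.4%, so the knockdown at the RNA level was partial. Of the keratins, KRT7, KRT8 and KRT18 averaged 748, 998 and 302 CPM in siNC, and KRT19 3.53 CPM. PAX8 averaged 131 CPM and EPCAM 1.84 CPM, and CDH1 and MUC16 were close to 0 at 0.104 and 0.0197 CPM. The summed level of the 6 epithelial markers was 2023 to 2105 CPM in siNC and 1531 to 1683 CPM in siCCNL2. Of these, KRT7, KRT8 and KRT18 were called lower, KRT19 and EPCAM were not called, and CDH1 was not tested. Among ovarian carcinoma lineage markers, PAX8 and WT1 were called lower, MSLN and SOX17 were not called, and MUC16 was not tested. The 4 mesenchymal markers summed to 2673 to 2777 and 2739.6 to 2865 CPM, and of them only CDH2 was called, higher (128 and 148 CPM). The 5 endothelial markers summed to 116 to 121 CPM in siNC and 45.9 to 55.5 CPM in siCCNL2, nearly all of it CDH5 (114 and 47.2 CPM). CDH5 and PECAM1 (2.38 and 0.915 CPM) were called lower, while VWF (0.887 and 0.94 CPM) was not called and KDR and TEK were below 1 CPM. The part of the lower epithelial and endothelial marker levels in the results was not tested. In bulk RNA, fewer cells of a type and less RNA per cell cannot be told apart.

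Promoter sequence is shown for 3 chains on which the results turn: LAMA5, whose mRNA fell most, ITGA6, which rose most among the called chains, and LAMA3, a laminin alpha chain that was not called. Each line holds the 250 bases before the RefSeq start on GRCh38.p14, 5′ to 3′ on the gene's strand. LAMA5 is read from chr20:62367313-62367562 on the minus strand, ITGA6 from chr2:172427086-172427335 on the plus strand, and LAMA3 from chr18:23872770-23873019 on the plus strand. Capitals mark exact matches, on either strand, to an AP-1 site, a TATA box, a CCAAT box or a GC box, whose letters are given with the motif counts over all chains.
LAMA5: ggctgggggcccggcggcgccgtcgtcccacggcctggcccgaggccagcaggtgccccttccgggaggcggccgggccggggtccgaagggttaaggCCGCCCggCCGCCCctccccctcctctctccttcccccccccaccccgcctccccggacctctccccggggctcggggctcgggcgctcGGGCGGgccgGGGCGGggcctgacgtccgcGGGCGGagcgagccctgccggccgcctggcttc
ITGA6: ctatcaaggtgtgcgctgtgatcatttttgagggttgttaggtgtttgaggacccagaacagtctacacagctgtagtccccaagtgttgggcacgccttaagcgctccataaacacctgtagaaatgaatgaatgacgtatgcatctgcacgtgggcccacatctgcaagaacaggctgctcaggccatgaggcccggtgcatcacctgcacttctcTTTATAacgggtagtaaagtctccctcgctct
LAMA3: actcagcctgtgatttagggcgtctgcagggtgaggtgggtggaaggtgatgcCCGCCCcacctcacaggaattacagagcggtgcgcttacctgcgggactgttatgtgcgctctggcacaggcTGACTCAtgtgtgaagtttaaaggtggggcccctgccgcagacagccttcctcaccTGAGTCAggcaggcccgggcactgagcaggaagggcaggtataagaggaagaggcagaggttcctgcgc
The LAMA5 sequence holds 5 GC boxes between -152 and -33 from the start and is 82.8% G or C. The ITGA6 sequence is 50.8% G or C and holds 1 TATA box at -32, written as TTTATA because it lies on the other strand. The deposited ITGA6 gene begins 18 bases past this RefSeq start, so the position of -32 holds for the RefSeq start only. The LAMA3 window lies 183567 bases inside the deposited gene, at the start of a shorter transcript, and holds 2 AP-1 sites at -125 and -69 beside 1 GC box.

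In both families more chains were called lower than higher in siCCNL2, with exceptions in each. Of the 38 chains, 23 had enough counts to be tested (15 integrin and 8 laminin chains). A gene was called when its adjusted p over 15346 tested genes was under 0.05 in edgeR's quasi-likelihood test. Of the tested chains, 4 were called higher, 12 lower and 7 were not called, so 16 of 23 (69.6%) were called. Over all tested genes 33.6% were called, 17.2% higher and 16.5% lower. The median log2 fold change was -0.29 over the tested chains and 0.00 over all tested genes, and the median absolute value was 0.32 against 0.19. CPM values of the groups did not overlap for 16 of the 23 chains, against 43.9% of all tested genes. Among integrins, 2 chains rose and 8 fell, with a median of -0.29 and a range from -0.85 to 0.60. Among laminins, 2 chains rose and 4 fell, with a median of -0.21 and a range from -1.21 to 0.15. Falls thus outnumbered rises among the called chains of each family, and the medians lie close together. The difference between the families was not tested.

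**Figure D1:**
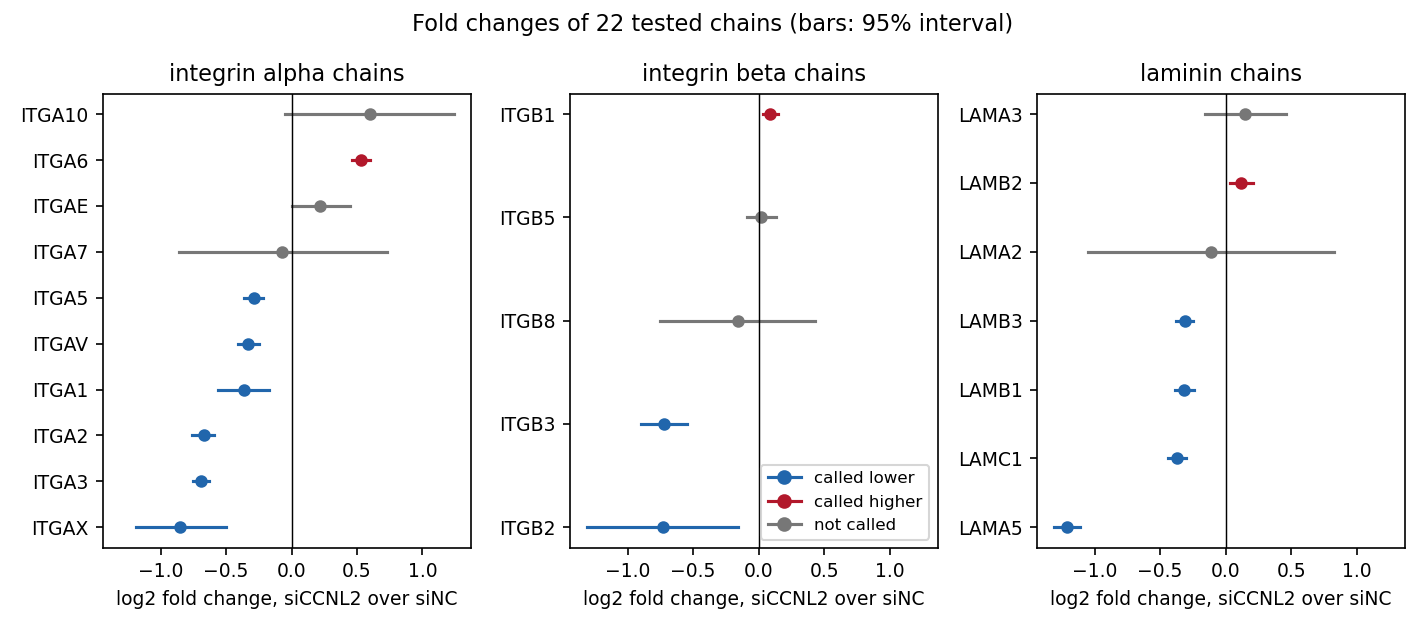
Log2 fold change (siCCNL2 over siNC, horizontal axis) of 22 tested chains in panels for integrin alpha, integrin beta and laminin chains, with bars for the 95% interval and colour for the call. LAMA5 lies farthest left at -1.21, and among called chains ITGA6 lies farthest right at 0.53. The wide bars belong to chains with few counts, such as ITGA10, ITGA7 and LAMA2.

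The laminin receptor chains ITGA3 and ITGA6 moved in opposite directions. ITGA3, at chr17:50055968-50090481 on the plus strand, stood at 1951, 1947 and 1980.4 CPM in siNC and at 1220.4, 1177 and 1242 CPM in siCCNL2. All siCCNL2 libraries lay far below all siNC libraries, and the mean fell by 38.1% (log2 fold change -0.69, SE 0.0299, adjusted p = 1.07e-14). ITGA6, at chr2:172427354-172506459 on the plus strand, stood at 307, 306 and 302 CPM in siNC and at 434, 435 and 451 CPM in siCCNL2. Here the siCCNL2 libraries were all above the siNC libraries, with a 1.44-fold rise (log2 fold change 0.53, SE 0.0343, adjusted p = 1.33e-11). ITGA7, the laminin receptor chain best known from muscle, was near the limit of counting at 0.964 ± 0.0745 CPM (SD, n = 3) and 0.941 ± 0.344 CPM and was not called. Its log2 interval of -0.86 to 0.73 leaves changes of either sign possible.

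Collagen receptor chains were lower where they were well counted. ITGA2 had 278, 269.6 and 256 CPM in siNC and 175, 164 and 165 CPM in siCCNL2. The groups were clearly apart, a fall of 37.2% (log2 fold change -0.67, SE 0.0411, adjusted p = 4.85e-12). ITGA1 had 23.7, 22.7 and 19.3 CPM in siNC and 17.5, 17.8 and 15.8 CPM in siCCNL2. Its lowest siNC library lay just above its highest siCCNL2 library, with a fall of 22.2% (log2 fold change -0.36, SE 0.0934, adjusted p = 0.00365). That call was lost on the deposited TPM-like score, a level per gene length made by the authors (limma adjusted p = 0.088 and 0.0907 with pseudocounts of 1 and 0.1). ITGA1 and ITGA2 are neighbours on chromosome 5, 30131 bases apart and on the same strand. ITGA10 ran from 1.0 to 1.83 CPM in siNC and from 1.57 to 2.85 CPM in siCCNL2, the groups overlapped, and its log2 fold change of 0.60 was not called (interval -0.05 to 1.24, adjusted p = 0.151).

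ITGA5 and ITGAV, which both bind arginine-glycine-aspartate motifs, fell by 18.0% and 20.4%. ITGA5, the fibronectin receptor chain, stood at 478, 465 and 482 CPM in siNC and at 389, 388 and 392 CPM in siCCNL2. The siCCNL2 libraries were nearly identical and all lower (log2 fold change -0.29, SE 0.0332, adjusted p = 2.46e-07). ITGAV stood at 219.5, 215 and 213 CPM in siNC and at 170.1, 177 and 168 CPM in siCCNL2. The groups again did not overlap (log2 fold change -0.33, SE 0.0388, adjusted p = 2.98e-07).

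Of the 5 chains usually found on leukocytes (ITGAL, ITGAM, ITGAX, ITGAD and ITGB2), 2 were tested and both were called lower from low levels. ITGAX had 11.7, 8.34 and 10.3 CPM in siNC and 7.35, 4.55 and 4.71 CPM in siCCNL2. The groups did not overlap, a fall of 45.2% (log2 fold change -0.85, SE 0.168, adjusted p = 0.000308). ITGB2 had 4.08, 3.41 and 2.32 CPM in siNC and 2.25, 2.54 and 1.15 CPM in siCCNL2. These groups overlapped, and the ITGB2 log2 fold change of -0.73 (SE 0.276, adjusted p = 0.0432) was no longer called when siNC replicate 1 (-0.54, adjusted p = 0.221), siNC replicate 2 (-0.70, adjusted p = 0.118) or siCCNL2 replicate 3 (-0.46, adjusted p = 0.241) was left out. The defining leukocyte marker PTPRC averaged 0.184 CPM in siNC, CD3E never exceeded a count of 1, and CD2, MS4A1 and CD68 had no count in any library. CSF1R, a receptor of macrophages, was called lower at 2.01 and 0.644 CPM, CD14 averaged 0.473 and 0.233 CPM, and LYZ 0.515 and 0.311 CPM. The 10 leukocyte markers, with ITGB2 among them, summed to 6.09 to 6.7 CPM in siNC and 1.65 to 4.77 CPM in siCCNL2. ITGB2 itself averaged 3.27 and 1.98 CPM, so this sum is not separate from the ITGB2 result. The part of the other markers in the ITGAX and ITGB2 results was not tested. ITGAE, the chain that binds E-cadherin, averaged 12.1 ± 1.53 CPM in siNC and 14.0 ± 0.483 CPM in siCCNL2 (SD, n = 3) and was not called (log2 fold change 0.22, adjusted p = 0.127).

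Of the 5 tested beta chains, 1 was called higher, 2 lower and 2 were not called. ITGB1, the beta chain with the most partners, stood at 1754, 1695 and 1709.5 CPM in siNC and at 1841, 1805 and 1837 CPM in siCCNL2. Every siCCNL2 library was slightly higher, by 6.29% on average (log2 fold change 0.09, SE 0.0287, adjusted p = 0.02). ITGB1 was no longer called when siNC replicate 2 (adjusted p = 0.0839) or siCCNL2 replicate 3 (adjusted p = 0.0705) was left out, and on the deposited score the groups overlapped. ITGB3, which pairs with ITGAV, had 30.1, 26.4 and 31.7 CPM in siNC and 17.0, 18.3 and 18.3 CPM in siCCNL2. Its groups were well separated, a fall of 39.2% (log2 fold change -0.72, SE 0.0847, adjusted p = 3.01e-07). ITGB5, another partner of ITGAV, had 128, 122 and 128 CPM in siNC and 117, 128 and 139.8 CPM in siCCNL2. The ITGB5 groups overlapped, and its interval of -0.09 to 0.13 bounds the log2 difference. ITGB8 averaged 1.83 ± 0.233 and 1.64 ± 0.245 CPM (SD, n = 3) and was not called (interval -0.75 to 0.43).

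The 15 untested chains (11 integrin and 4 laminin) had at most 16 counts in any library and 3 to 53 counts over all 6. Among them are the other beta chains. ITGB4, the partner of ITGA6 in hemidesmosomes, had 40 counts in siNC and 13 in siCCNL2, ITGB6 had 19 and 6, and ITGB7 had 13 and 8. When no count filter was applied, ITGB4 had a log2 fold change of -1.58 with an edgeR adjusted p of 0.0387. ITGB4 was also tested and called lower without siNC replicate 3 (-1.77, adjusted p = 0.0232) or without siCCNL2 replicate 1 (-2.51, adjusted p = 0.00684). All these ITGB4 values rest on few counts. ITGAD, untested in the same way, had 3 counts in siNC and 19 in siCCNL2 (log2 fold change 2.54, adjusted p = 0.062 without the filter). The untested alpha chains ITGA2B, ITGA4, ITGA8, ITGA9, ITGA11, ITGAL and ITGAM had 0 to 27 counts per group of 3 libraries. The untested laminin chains LAMA1, LAMA4, LAMB4 and LAMC3 had 2 to 26 counts per group.

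**Figure D2:**
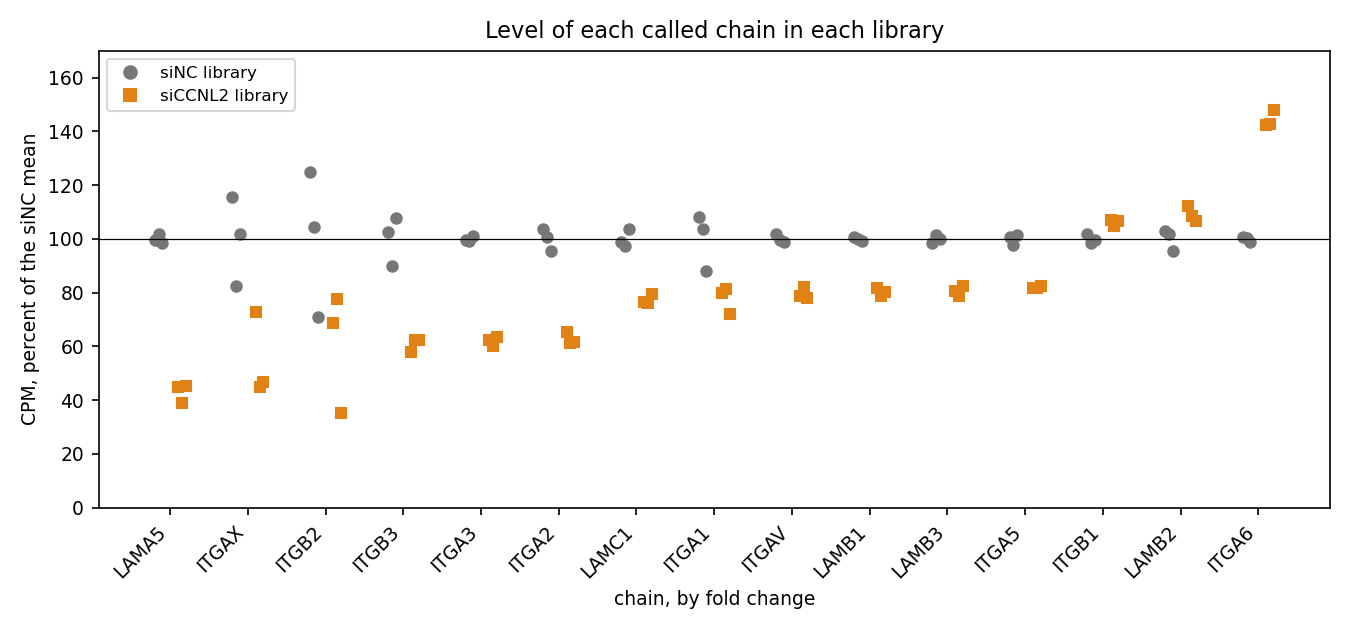
CPM in each library as a percent of the siNC mean of that chain (vertical axis) for 15 called chains, ordered by fold change, with circles for siNC and squares for siCCNL2 libraries. For 14 of the 15 chains the groups do not overlap, and they overlap for ITGB2. The siCCNL2 squares of ITGB1 and LAMB2 lie only 6.29% and 8.88% above the siNC mean on average.

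Among laminin alpha chains, LAMA5 carried the change. LAMA5, at chr20:62307955-62367312 on the minus strand, had 291, 297 and 287 CPM in siNC and 131, 114 and 132 CPM in siCCNL2. All siCCNL2 libraries were below 50% of the siNC mean, and the average fall was 56.9% (log2 fold change -1.21, SE 0.0464, adjusted p = 1.04e-15). LAMA3, which assembles with LAMB3, had 5.97, 7.33 and 6.59 CPM in siNC and 8.72, 6.71 and 6.49 CPM in siCCNL2. The groups overlapped, and LAMA3 was not called (log2 fold change 0.15, interval -0.16 to 0.46, adjusted p = 0.475). LAMA2 averaged 0.746 CPM in siNC and 0.666 CPM in siCCNL2 and was not called.

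LAMB1, LAMB3 and LAMC1 fell by similar amounts. LAMB1 had 239.5, 237 and 236 CPM in siNC and 194, 187 and 190.4 CPM in siCCNL2, a fall of 19.7% (log2 fold change -0.32, SE 0.0372, adjusted p = 3.01e-07). LAMB3, the beta partner of LAMA3, had 1034, 1064 and 1051 CPM in siNC and 845, 826 and 864 CPM in siCCNL2, a fall of 19.5% (log2 fold change -0.31, SE 0.0309, adjusted p = 1.87e-08). LAMC1, the most widely used gamma chain, had 710.1, 698 and 744 CPM in siNC and 549.9, 547 and 571 CPM in siCCNL2, a fall of 22.4% (log2 fold change -0.37, SE 0.034, adjusted p = 6.45e-09). For these 3 chains every siCCNL2 library was below every siNC library, and the sizes of the falls lie within 3 percentage points of each other.

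LAMB2, a beta chain that can take the place of LAMB1, was called higher by 8.88%. LAMB2 had 147, 145 and 136 CPM in siNC and 160.3, 155 and 152 CPM in siCCNL2 (log2 fold change 0.12, SE 0.0428, adjusted p = 0.029). The groups did not overlap, yet the margin was small, 152 CPM in the lowest siCCNL2 library against 147 CPM in the highest siNC library. LAMB2 was no longer called when siNC replicate 2 (adjusted p = 0.0529), siNC replicate 3 (adjusted p = 0.133) or siCCNL2 replicate 1 (adjusted p = 0.102) was left out.

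Levels of different chains can be compared only per gene length, for which the deposited TPM-like score was used. On that scale the order of the chains named here in siNC began with ITGA3 (1100.2 ± 2.05, SD, n = 3), ITGB1 (942 ± 21.0), LAMB3 (750.3 ± 11.6), ITGA5 (292 ± 4.29), LAMC1 (278 ± 6.96), ITGA6 (161 ± 2.74), LAMB1 (108 ± 1.71), ITGA2 (105 ± 5.13), ITGB5, ITGAV, LAMA5 (78.6 ± 1.95), LAMB2 (77.3 ± 3.81), ITGB3, ITGAE, ITGAX, ITGA1, ITGB2 and LAMA3 (1.91 ± 0.198). Below these came ITGA10, ITGA7, ITGB8 and LAMA2. Neighbours in this order whose siNC ranges overlapped were LAMB1 and ITGA2, ITGB5 and ITGAV, LAMA5 and LAMB2, ITGAX and ITGA1, ITGB2 and LAMA3, ITGA10 and ITGA7, and ITGA7 and ITGB8. In siCCNL2 ITGB1, with a score of 994 ± 33.5, stood above ITGA3 with 676 ± 31.6.

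The summed score of the 18 integrin alpha chains was 1783, 1763 and 1756 in siNC and 1331, 1244 and 1324 in siCCNL2, a ratio of 0.735. The summed score of the 8 beta chains was 1076, 1036 and 1034 in siNC and 1116, 1055 and 1110.4 in siCCNL2, and these groups overlapped. Each sum follows mainly 1 chain, since ITGA3 made up 62.3% of the alpha score and ITGB1 89.9% of the beta score in siNC, so the beta sum does not show the falls of ITGB3 and ITGB2. The score of ITGB1 over the sum of its alpha partners was 0.538 ± 0.00815 in siNC and 0.775 ± 0.00722 in siCCNL2 (SD, n = 3). In siCCNL2 the ITGA3 share of the alpha score was 52.0%, and ITGA6 made up 9.12% in siNC and 17.8% in siCCNL2. The ratio of ITGA3 to ITGA6 was 6.75, 6.76 and 6.96 in siNC and 2.99, 2.87 and 2.92 in siCCNL2. Among the partners of ITGAV, ITGB5 exceeded ITGB3 by a ratio of 5.77 ± 0.388 in siNC and 9.59 ± 0.542 in siCCNL2. These sums and ratios are descriptions without a test.

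In laminins the alpha chains had a lower summed score than the beta chains and a larger relative fall. Their summed score was 80.9, 83.0 and 78.9 in siNC and 38.8, 32.0 and 37.7 in siCCNL2, a ratio of 0.447. The beta chains summed to 936 ± 14.1 and 769 ± 30.3 (SD, n = 3, ratio 0.822). The ratio of beta to alpha chains was therefore 11.6 ± 0.121 in siNC and 21.4 ± 1.41 in siCCNL2. LAMA3 had a score of 1.91 ± 0.198 in siNC and 2.1 ± 0.393 in siCCNL2, and the ratio of LAMB3 to LAMA3 was 394 ± 34.9 and 291 ± 46.4. The score uses a fixed length per gene, so this ratio makes no allowance for the shorter LAMA3 transcript. Which LAMA3 transcript the cells used was not tested. In the trimer of LAMA5, LAMB1 and LAMC1 the lowest chain was LAMA5 in both groups, at 78.6 and 33.7, and the ratio of LAMC1 to LAMA5 was 3.54 ± 0.177 and 6.39 ± 0.459. In the trimer of LAMA5, LAMB2 and LAMC1 the lowest chain was LAMB2 in siNC (77.3), level with LAMA5 within the spread, and LAMA5 in siCCNL2 (33.7). Some other trimers use LAMA1, LAMA2 or LAMA4, whose mean scores were at most 0.23 in either group. These values are mRNA levels and do not measure trimers.

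**Figure D3:**
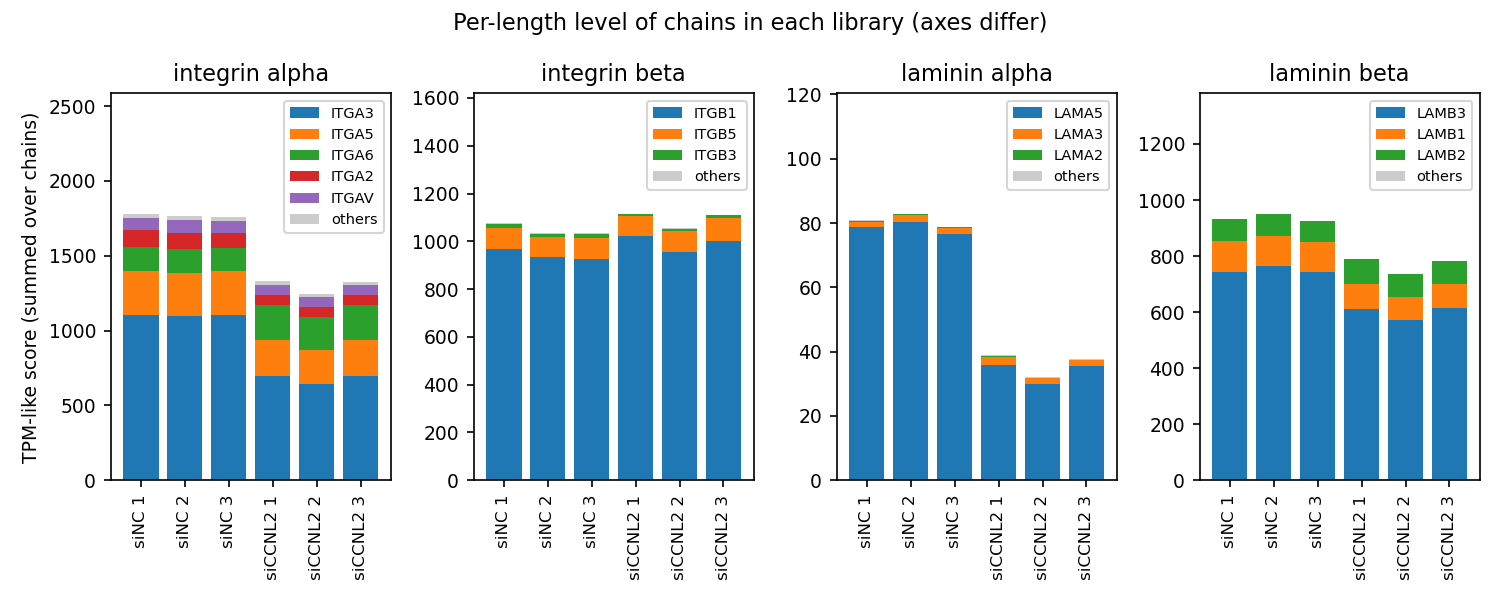
TPM-like score (vertical axis, a separate scale in each panel) stacked by chain for the integrin alpha, integrin beta, laminin alpha and laminin beta classes in each of the 6 libraries. The alpha integrin stacks drop from at least 1756 to at most 1331 while the ITGA6 layer widens, the beta integrin stacks overlap between groups, and the laminin alpha stacks, nearly all LAMA5, drop from at least 78.9 to at most 38.8.

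Some chains share exon sequence with another gene in GENCODE release 29, and whether strand was used in counting was not given in the sources used here. ITGA1 shares 475 exon bases with PELO on the same strand, and PELO rose slightly (48.2 to 54.6 CPM). LAMA5 shares 244 exon bases with ADRM1 on the other strand, and ADRM1 was not called, at 43.9 and 44.1 CPM. LAMB1 shares 221 exon bases with the antisense gene AC005046.1, which was called lower at 1.5 and 0.66 CPM, a small amount beside LAMB1. ITGB2 shares 303 exon bases with ITGB2-AS1 (1.77 and 0.999 CPM, not called), which is of the same order as ITGB2 itself. ITGAE shares 427 exon bases with HASPIN (16.0 and 18.0 CPM, not called), which is more abundant than ITGAE in CPM. ITGB3 shares 2266 exon bases on the same strand with AC068234.1, which had no count in any library.

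RefSeq promoters, each 300 bases from 250 before to 50 after the start, were found for 26 of the 38 chains and 17 of the 23 tested chains. GC boxes (GGGCGG, either strand) were present in 12 of the 17, of which 3 belonged to chains called higher, 6 to chains called lower and 3 to uncalled chains, against 44.6% of 27305 promoters. AP-1 sites (TGANTCA) were present in ITGA5, called lower, and LAMA3, uncalled, against 7.76% of promoters. The TATA box (TATAAA) was present in ITGA6 alone among the 17, against 12% of promoters. CCAAT boxes were present in ITGA10 and ITGB8, both uncalled, against 35.7%, and E-boxes (CACCTG) in 4 of the 17, against 20.6%. With these letters and this window, chains that rose and chains that fell both held GC boxes. Tested chains without a promoter include ITGA3, ITGB3, ITGAX and ITGB2, called lower, and ITGA7, uncalled, so the split by direction is partial. The motifs were searched separately, so matches of different motifs may share bases, and a match is a description of the sequence and not a bound site.

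Genes that work with these chains were counted in 5 lists. Of 34 tested integrin activators and adhesion adaptors, 6 rose and 12 fell (52.9% called, median log2 fold change -0.07). TNS3, a tensin that links integrins to actin, rose from 168 ± 1.93 to 232 ± 10.3 CPM (SD, n = 3), while its relative TNS1 fell from 64.6 ± 4.4 to 38.4 ± 1.86 CPM. LIMS2 and KANK1 also rose, by 0.56 and 0.33 on the log2 scale. LPXN (leupaxin) and FERMT3, the kindlin of blood cells, fell by 0.86 and 0.59 on the log2 scale. The tensins TNS1 and TNS3 thus moved in opposite directions, as the laminin receptor chains did. Of 26 tested integrin-proximal kinases and signalling adaptors, 8 rose and 5 fell (50% called, median -0.02). CSK, the kinase that restrains SRC, rose from 49.4 ± 0.629 to 76.2 ± 1.58 CPM, and the GTPase RAC1 from 252 ± 13.7 to 359.7 ± 8.07 CPM. RAPGEF1, an exchange factor for RAP1, rose by 0.56 on the log2 scale, while RAP1A, RAP1B and GIT2 fell by 0.22, 0.28 and 0.48.

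Of 20 tested basement membrane partners of laminin, 5 rose and 11 fell (80% called, median -0.23). HSPG2, the proteoglycan perlecan, fell from 252 ± 6.74 to 146 ± 9.54 CPM (SD, n = 3), COL7A1 of anchoring fibrils from 19.3 ± 0.848 to 11.5 ± 1.57 CPM, and FREM2 by 0.57 on the log2 scale. NTN4, a netrin that binds laminin gamma chains, COL17A1 of hemidesmosomes and COL4A6 rose by 1.40, 0.67 and 0.49 on the log2 scale. The COL4A6 call was near the threshold (edgeR adjusted p = 0.048, interval 0.10 to 0.89). It rests on 45 to 103 counts per library, and on the deposited score the COL4A6 groups overlapped. The partners of laminin were therefore called in both directions, more often lower. Of 24 tested non-integrin laminin receptors and hemidesmosome proteins, 7 rose and 8 fell (62.5% called, median 0.05). The syndecans split: SDC4 rose from 108 ± 1.72 to 199 ± 9.83 CPM and SDC1 by 0.61 on the log2 scale, while SDC2 fell from 18.3 ± 3.93 to 11.5 ± 1.49 CPM. BCAM, a receptor for LAMA5-containing laminins, fell from 19.2 ± 2.06 to 12.3 ± 0.989 CPM, beside the fall of LAMA5 itself. B4GAT1, an enzyme of the sugar chain by which dystroglycan binds laminin, fell by 0.57 on the log2 scale.

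Of 26 tested other integrin ligands, 7 rose and 13 fell (76.9% called, median -0.22). SPP1 (osteopontin), a ligand of ITGAV integrins, rose from 38.9 ± 1.73 to 70.4 ± 2.42 CPM (SD, n = 3), and LTBP1 and COL6A3 rose by 0.97 and 1.52 on the log2 scale. ICAM1, the ligand of leukocyte integrins, fell from 17.6 ± 1.68 to 8.77 ± 1.33 CPM, and COL5A1 and TGFB2 each fell by 0.63 on the log2 scale. In all 5 lists the share called was above the 33.6% of all tested genes, and in each list genes were called in both directions. The median absolute log2 fold change was 0.13 for activators and adhesion adaptors and 0.15 for kinases and signalling adaptors. Both lie below the 0.19 of all tested genes, so the higher share called there did not come with larger changes. It was 0.49 for basement membrane partners, 0.28 for non-integrin laminin receptors and hemidesmosome proteins, and 0.39 for other integrin ligands. The lists were not tested against other genes.

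**Figure D4:**
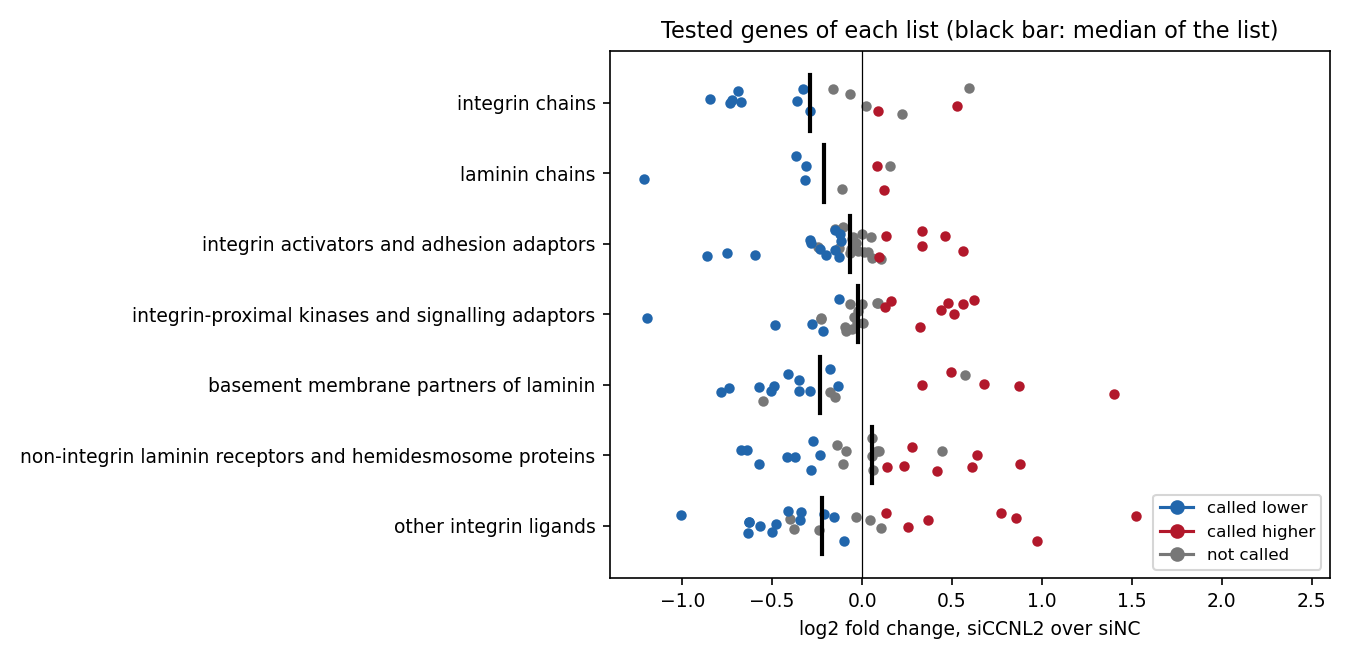
Log2 fold change (siCCNL2 over siNC, horizontal axis) of every tested gene in the integrin and laminin families and the 5 partner lists (rows), with colour for the call. Each row holds called genes on both sides of 0, and the medians run from -0.29 for integrin chains to 0.05 for the non-integrin laminin receptors and hemidesmosome proteins.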

How the data were processed

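The authors deposited raw read counts per gene for 6 libraries and a TPM-like score that holds the same counts scaled by gene length. The deposited score adds up to 1e+06 when each name is used once. GRCh38, HISAT2, HTSeq 2.0.1 and fastp 0.23.0 appear in the submitters' processing notes. Annotation and strand setting are not given in the sources used here. Rows numbered 62710 for 60835 distinct names, each used once.

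Genes were kept by filterByExpr (minimum count 10, minimum total 15), which left 15346. The main test was the quasi-likelihood test of edgeR 4.0.16 (R 4.3.3) after TMM scaling, Benjamini-Hochberg adjusted over these genes. CPM values are TMM-scaled. Each SE was derived as the absolute log2 fold change over the square root of the F statistic of the main test. Intervals were built from that SE with a t distribution. Fits were tested on simulated data. For a single chain, the exact two-sided permutation test over 3 against 3 libraries cannot go below p = 0.1. Alternatives used DESeq2 1.42.0, limma 3.58.1, other factors, filters and thresholds, and fits without each library. Gene positions were taken from the deposited table (GRCh38), exon overlaps come from GENCODE 29, and promoters come from RefSeq on GRCh38.p14.

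The chains and partner lists were chosen with earlier results of these data known. All chains enter the counts, some items are not reported here by name, and of each list up to 3 called genes per direction were named by size of change, if the higher group averaged at least 5 CPM. No protein sequence was used here.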

Additional observations from a re-analysis of the deposited data

How the results depend on the processing

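Over 16 alternatives of scaling, filter, test, block or left-out library per chain, all at an adjusted p under 0.05 (14 for LAMA2, which was untested in the rest), 11 of the 16 called chains kept call and direction in all: ITGA2, ITGA3, ITGA5, ITGA6, ITGAV, ITGAX, ITGB3, LAMA5, LAMB1, LAMB3 and LAMC1. The other 5 lost it in at least 1, among them ITGA1, ITGB1, ITGB2 and LAMB2 in 2, 5, 6 and 7, the cause was not tested, and no called chain changed direction. The 7 uncalled chains were not called in any. Integrin chains called higher, 2 in the main result, numbered 1 with upper-quartile factors, with either pseudocount on the score (1 or 0.1) and at an adjusted p under 0.01, 0 at a fold of at least 1.5, and 1 to 2 when 1 library was left out. Integrin chains called lower, 8, numbered 5 at a fold of at least 1.5 and 6 with either pseudocount on the score. They numbered 7 with the DESeq2 Wald test or the 0.01 threshold, 9 with no count filter, and 7 to 9 when 1 library was left out. Laminin chains called higher, 2, numbered 1 with DESeq2 size factors or its Wald test, 0 with upper-quartile factors, no count filter, either pseudocount, the 0.01 threshold or the 1.5 fold, and 0 to 1 when 1 library was left out. Laminin chains called lower, 4, numbered 1 at the 1.5 fold. Over all genes, that fold left 533 higher and 559 lower of 2634 and 2525. With the replicate number as a block, integrins had 2 chains higher and 8 lower and laminins 2 higher and 4 lower, and all genes 2673 and 2561. Libraries of the same number correlated at 0.0412, 0.0222 and 0.0359 after removal of group means, each the highest for its library, a hint from the data only, and the numbers were not treated as pairs. The log2 intervals of ITGA7 (-0.86 to 0.73) and LAMA2 (-1.05 to 0.83), both averaging under 1 CPM, were wide.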

Other observations

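The main chains of type IV collagen, which forms the second network of the basement membrane, were called in opposite directions. These genes lie outside the naming rule above and were chosen after their values were seen. COL4A1 rose from 259 ± 10.2 to 326 ± 10.1 CPM (SD, n = 3, log2 fold change 0.33, edgeR adjusted p = 2.49e-07), while COL4A2 fell from 615 ± 18.4 to 504 ± 12.9 CPM (-0.29, adjusted p = 3.82e-07). The spans of COL4A1 and COL4A2 overlap on opposite strands at chr13:110305812-110307157. Shared exon bases were not examined for this pair, and the strand setting of the counts is not known. NID1, nidogen, which links the laminin and collagen networks, fell from 218 ± 4.71 to 155 ± 1.89 CPM (-0.49, adjusted p = 4.53e-10). DAG1, dystroglycan, a laminin receptor outside the integrins, rose from 161 ± 3.5 to 214 ± 9.49 CPM (0.42, adjusted p = 2.02e-08).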
